A study of Homo sapiens with 6 samples.

Results

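The genes described here encode receptors for GABA and glutamate, and the measurement is where the transcription factor MYT1L was mapped in and around them. They were chosen by family name: 18 GABA receptor genes and 24 glutamate receptor genes, 42 of the 20037 protein-coding genes of the annotation used. A peak was assigned to a gene when it overlapped the gene body or the 5 kb on either side, called the gene's window. No measured value entered the choice, but the genes were proposed with earlier results of these data known. The study mapped MYT1L by CUT&RUN, in which an antibody directs a nuclease to cut out the DNA beside the bound protein, in day 30 cortical interneurons made from H1, an established line of human embryonic stem cells. In 4 libraries the antibody was directed at MYT1L and in 2 control libraries it was IgG. All were from H1-derived cells labelled WT (wild type), with no treatment or genotype difference between them. The deposited files are lists of peaks and hold no expression values, so the cell type could not be checked against its markers. The labels do not say whether the libraries came from separate cultures, and p-values therefore measure only the spread between these libraries.

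GABA is the main inhibitory transmitter of the adult brain and glutamate the main excitatory one. GABA-A receptors are chloride channels built from alpha, beta, gamma and other subunits, and GABA-B receptors signal through G proteins. Glutamate acts on ion channels of the AMPA, kainate and NMDA classes, on the related delta receptors, and on metabotropic receptors that signal through G proteins. Cortical interneurons release GABA and also carry receptors for both transmitters. MYT1L is a zinc-finger factor of neurons, and its family is known for binding the core word AAGTT.

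The first 5 promoters below show the sequence at receptor gene starts that MYT1L regions overlap, not the whole regions. A region is a set of MYT1L peaks from any of the 4 libraries joined by an overlap of at least 1 bp. It is called reproducible when at least 3 of the 4 MYT1L libraries have a peak in it and neither IgG library does. The first 5 sequences come from the receptor genes with a promoter under a reproducible region, ranked by number of libraries and then by mean fold enrichment, with 1 promoter per gene. Where a gene had several such promoters, as GRIA4 and GRIA2 did, the one with its start nearest to the summit is shown. The last 2, of GABRG1 and GABRA6, belong to GABA-A subunits with no peak in any library and are shown for contrast, chosen after their values were seen. Each runs from 250 bases before to 50 bases after a start listed by RefSeq on GRCh38.p14, 5′ to 3′ on the gene's strand, and capitals mark every CG dinucleotide. The windows are chr11:105610456-105610755, plus strand, for GRIA4; chr6:101393458-101393757, plus strand, for GRIK2; chr9:98708886-98709185, minus strand, for GABBR2. They are chr4:157220369-157220668, plus strand, for GRIA2 and chr9:101738598-101738897, minus strand, for GRIN3A. The GRIN3A region has its summit 580 bp downstream of the start, outside the printed window. Those of the contrast pair are chr4:46124005-46124304, minus strand, for GABRG1 and chr5:161685471-161685770, plus strand, for GABRA6.
GRIA4: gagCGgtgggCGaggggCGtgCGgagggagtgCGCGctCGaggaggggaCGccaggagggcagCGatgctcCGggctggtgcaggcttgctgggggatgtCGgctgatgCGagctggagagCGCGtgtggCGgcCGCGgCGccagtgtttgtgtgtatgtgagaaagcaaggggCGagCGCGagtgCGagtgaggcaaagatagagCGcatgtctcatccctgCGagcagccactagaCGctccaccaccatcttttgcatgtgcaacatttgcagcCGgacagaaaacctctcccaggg
GRIK2: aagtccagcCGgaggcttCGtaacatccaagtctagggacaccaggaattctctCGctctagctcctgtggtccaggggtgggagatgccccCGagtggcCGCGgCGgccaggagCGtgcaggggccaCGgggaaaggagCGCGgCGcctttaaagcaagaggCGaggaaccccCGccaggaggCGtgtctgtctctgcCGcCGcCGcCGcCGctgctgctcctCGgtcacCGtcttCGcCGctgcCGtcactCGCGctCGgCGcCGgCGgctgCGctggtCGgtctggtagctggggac
GABBR2: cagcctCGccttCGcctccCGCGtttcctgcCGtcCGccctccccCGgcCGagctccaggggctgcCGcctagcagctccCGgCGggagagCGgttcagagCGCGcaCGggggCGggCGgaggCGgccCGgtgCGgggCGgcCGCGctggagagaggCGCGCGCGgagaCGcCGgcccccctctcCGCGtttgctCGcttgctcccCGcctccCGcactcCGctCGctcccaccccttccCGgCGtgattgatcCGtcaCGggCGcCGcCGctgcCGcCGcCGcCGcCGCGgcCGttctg
GRIA2: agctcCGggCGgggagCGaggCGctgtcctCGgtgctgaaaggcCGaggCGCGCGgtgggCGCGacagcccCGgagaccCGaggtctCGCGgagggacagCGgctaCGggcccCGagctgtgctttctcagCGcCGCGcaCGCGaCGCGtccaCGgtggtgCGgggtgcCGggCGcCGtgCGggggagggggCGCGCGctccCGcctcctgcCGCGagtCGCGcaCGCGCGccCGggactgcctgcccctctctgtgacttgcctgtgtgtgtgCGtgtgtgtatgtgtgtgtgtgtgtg
GRIN3A: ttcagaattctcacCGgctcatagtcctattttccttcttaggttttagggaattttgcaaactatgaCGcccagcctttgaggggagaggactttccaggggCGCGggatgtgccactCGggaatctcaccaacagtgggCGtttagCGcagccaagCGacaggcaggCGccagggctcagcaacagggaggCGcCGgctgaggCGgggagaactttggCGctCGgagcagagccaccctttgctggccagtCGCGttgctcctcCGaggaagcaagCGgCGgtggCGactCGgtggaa
GABRG1: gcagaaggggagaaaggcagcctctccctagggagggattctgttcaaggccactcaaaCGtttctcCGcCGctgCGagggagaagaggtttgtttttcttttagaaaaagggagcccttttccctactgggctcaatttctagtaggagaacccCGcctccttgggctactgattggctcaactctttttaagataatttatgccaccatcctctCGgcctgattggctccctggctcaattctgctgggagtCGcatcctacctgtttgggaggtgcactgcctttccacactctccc
GABRA6: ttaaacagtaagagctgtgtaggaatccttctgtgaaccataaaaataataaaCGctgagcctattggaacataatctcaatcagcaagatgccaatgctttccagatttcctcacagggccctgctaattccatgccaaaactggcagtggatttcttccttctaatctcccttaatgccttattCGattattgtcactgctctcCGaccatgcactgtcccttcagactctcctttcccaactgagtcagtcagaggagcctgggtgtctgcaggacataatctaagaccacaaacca

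The 5 promoters under reproducible regions held 26 CG dinucleotides in GRIA4, 33 in GRIK2, 50 in GABBR2, 44 in GRIA2 and 21 in GRIN3A, against 7 in GABRG1 and 3 in GABRA6. Of the 42 genes, 34 had an entry in the promoter table, with 51 promoters in all. A reproducible region overlapped 11 of the 51, in 9 genes, and 24 had no MYT1L peak. The median share of G and C was 69.3% in the former and 52.0% in the latter, and the median ratio of observed to expected CpG was 0.885 and 0.382. The same medians over all protein-coding promoters were 68.0% and 52.0%, and 0.875 and 0.301, so the receptor promoters differed with occupancy much as promoters in general did. The word AAGTT, or AACTT on the other strand, was in 16 of the 51 receptor promoters (31.4%), in 30% of the 22199 protein-coding promoters and in 34% of the 35116 promoters of all gene types. It was in 2 of the 11 occupied receptor promoters (18.2%), as AACTT in the GRIN3A promoter printed and in a second GRIA4 promoter not printed, whose CpG ratio was 0.291. It was in 8 of the 24 without a MYT1L peak (33.3%), and over all protein-coding promoters the shares were 20.5% and 41.7%. These counts describe letters in a window of 300 bases and not binding sites. GRIN1, GABRD, GABRA5, GRIK1, GRID1, GRIN2C, GABRA3 and GRIA3 had no entry in the promoter table.

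**Figure D1:**
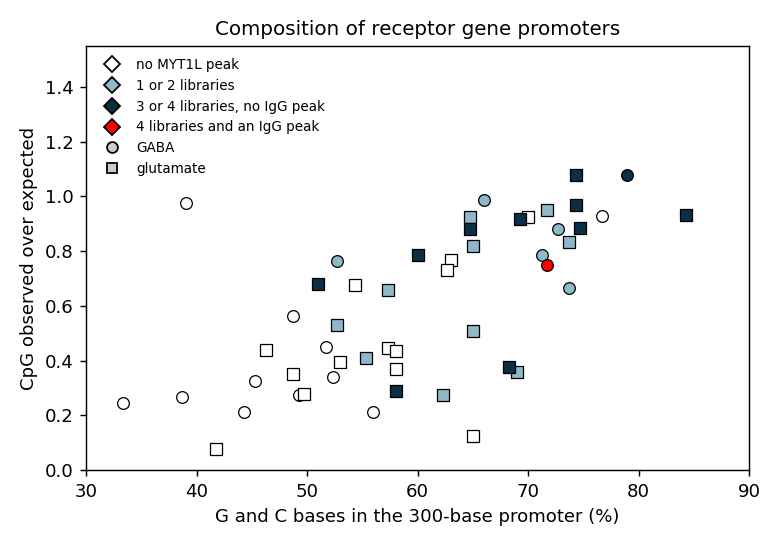
Each point is 1 of the 51 receptor gene promoters, placed by its share of G and C in percent and by its ratio of observed to expected CpG; circles are GABA and squares glutamate receptor genes, and the fill gives the MYT1L libraries with a peak. Promoters under reproducible regions have a median of 69.3% G and C and lie mostly at the upper right, while those with no MYT1L peak have a median of 52.0%.

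On chromosomes 1 to 22, X and Y the MYT1L lists held 27926, 12310, 18966 and 30086 peaks in replicates 1 to 4, and the IgG lists 976 and 998. Another 685, 405, 559 and 630 MYT1L peaks and 220 and 169 IgG peaks lay on other sequences. These were left out of every count and share given here. Read totals are not given in the sources used here, so sequencing depth is unknown. Counts in the receptor windows moved with the length of the list. Peaks in the receptor windows numbered 61, 25, 44 and 76 in MYT1L replicates 1 to 4 and 1 and 0 in IgG replicates 1 and 2. Over the 10.65 Mb of these windows this was 5.73, 2.35, 4.13 and 7.14 peaks per Mb with MYT1L and 0.0939 and 0 with IgG. All 4 MYT1L libraries lay above both IgG libraries, by a mean of 4.79 peaks per Mb. An exact permutation test over the 6 libraries gave p = 0.133, the smallest value that 4 libraries against 2 can give. As a share of a library's peaks on these chromosomes the receptor peaks made up 0.218%, 0.203%, 0.232% and 0.253% with MYT1L, 0.102% in IgG replicate 1 and 0% in IgG replicate 2. The exact (Clopper-Pearson) 95% intervals of the IgG shares, 0.00259% to 0.570% and 0% to 0.369%, include every MYT1L share, so a difference in share was not detectable with so few IgG peaks. These intervals cover counting error only. The difference in density was 1.95 peaks per Mb when only peaks with a −log10 q of at least 5 were kept and 2.00 when each MYT1L list was held to the number of peaks in the shortest one.

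Receptor windows were sparser than gene windows in general. All protein-coding windows together held 12.97, 6.29, 9.31 and 15.3 peaks per Mb in MYT1L replicates 1 to 4. The receptor density was 0.442, 0.373, 0.444 and 0.466 times that, a mean ratio of 0.431 ± 0.0402 (SD, n = 4), below 1 in every MYT1L library. Receptor genes are long, with a median of 146.4 kb against 24.11 kb for all protein-coding genes, and length was not adjusted for in this ratio. By gene, 27, 16, 24 and 36 of the 42 had a peak in MYT1L replicates 1 to 4 (64.3%, 38.1%, 57.1% and 85.7%), beside 68.0%, 43.0%, 57.3% and 77.6% of all protein-coding genes.

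Of the 42 receptor genes, 19 had a reproducible region in their window (45.2%). Among all 20037 protein-coding genes 9624 did, which is 48.0% and close to the receptor share. This background is not matched for length, and receptor genes are longer, with a median of 146.4 kb against 24.11 kb. Beside genes of similar length, given below, the receptor share was lower in every length class except 100 to 300 kb. The split between the transmitters was uneven, with 6 of 18 GABA receptor genes (33.3%) and 13 of 24 glutamate receptor genes (54.2%). With lists of equal length 9 genes were called, 4 GABA (22.2%) and 5 glutamate (20.8%), and the split was no longer seen. All 5 receptor genes without any MYT1L peak were GABA-A subunits: GABRA6, GABRG1, GABRD, GABRP and GABRR1. They are 16.87, 88.29, 11.41, 31.33 and 53.78 kb long, against a median of 272.8 kb for glutamate receptor genes. Short glutamate receptor genes had peaks all the same, among them GRIN3B, GRM2, GRM6 and GRIN2C, of 9.314, 11.55, 16.99 and 19.51 kb. Whether length had a part in this was not tested. The share of all protein-coding genes without a peak in any MYT1L library was not counted, so this count has no background beside it. Another 8 genes had regions of at most 2 libraries and 10 had regions of 1 library only. Counting only regions that reach within 1 kb of a start, 14 of the 34 genes with a known strand were called (41.2%), beside 43.1% of all such protein-coding genes, with 4 of 15 GABA and 10 of 19 glutamate receptor genes.

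Most receptor regions were seen in a single library, as were most regions over all gene windows. The windows held 128 regions, and 86 of them came from 1 library alone. A further 18 were seen by 2 libraries, 15 by 3 and 9 by all 4, so that 24 (18.8%) were shared by at least 3. Over all gene windows 30.5% of 31108 regions were, and 16263 came from 1 library alone, without adjustment for gene length. Replicate 4, the longest list, had 34 regions of its own and a peak in all 24 shared ones. Replicate 2, the shortest, had 10 regions of its own and was missing from 10 of the 15 regions with peaks in 3 libraries. One of the 24 shared regions, at the start of GABRG3, also had an IgG peak, which left 23 reproducible regions: 16 reached within 1 kb of a gene start (of either gene end where no strand was given), and 7 lay in gene bodies.

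**Figure D2:**
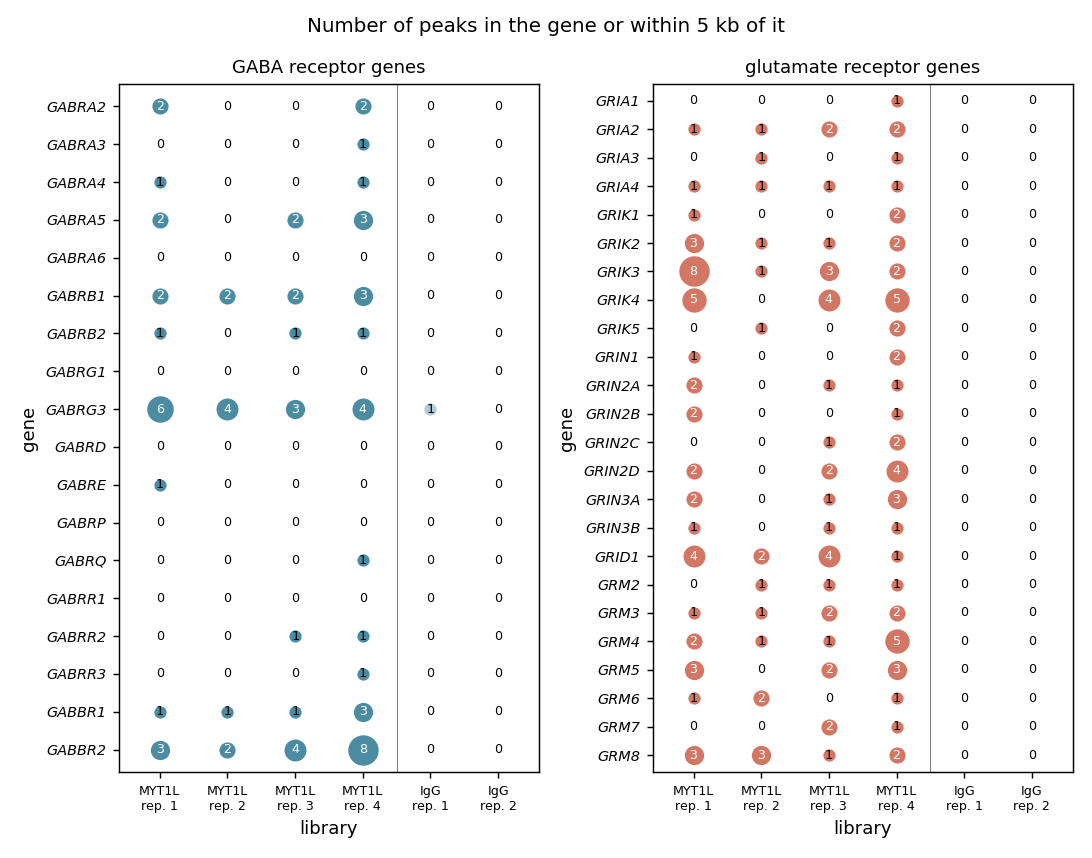
The number of peaks in each receptor gene's window is printed in a circle whose area grows with it, for the 4 MYT1L and 2 IgG libraries (columns); 0 has no circle. GABRG3, GABBR2, GRIK3 and GRIK4 carry the most peaks, and the 5 rows without any circle are all GABA-A subunits of 88.29 kb or less. Glutamate receptor genes of such lengths all have circles.

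Among the GABA-A alpha subunits, which shape the GABA and benzodiazepine sites and where in the neuron a receptor sits, 1 of 5 had a reproducible region. This was GABRA5, the subunit of many receptors outside the synapse, with 2, 0, 2 and 3 peaks in MYT1L replicates 1 to 4. Its region spanned chr15:26866835-26868309, with its summit 481 bp from the nearer end of the gene, whose strand was not given. The fold enrichment there, the authors' own value for each peak, was 5.76, 5.01 and 7.01 in replicates 1, 3 and 4, and replicate 2 had no peak. Here and below, where a library had several peaks in a region, the highest fold was taken. GABRA2 had 2 peaks each in replicates 1 and 4 and none in the others, GABRA3 had 1 in replicate 4, and GABRA6 had none. GABRA4 and its neighbour GABRB1 start close together in opposite directions and shared 2 regions, each in 1 library. The summit of the first lay 9 bp from the start of GABRA4 and 57 bp from that of GABRB1, and peaks there cannot be assigned to either gene alone.

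Both beta subunits measured, which every typical GABA-A receptor needs, had reproducible regions. GABRB1 had 2, 2, 2 and 3 peaks in MYT1L replicates 1 to 4, and the region seen in all 4 lay 1004 bp from a start listed inside the gene, at chr4:47032212-47033058, with folds of 6.24, 6.29, 7.31 and 9.22. A second region, chr4:47377959-47378511, was 346821 bp from the nearest start and had peaks in replicates 2, 3 and 4. GABRB2, a subunit of the most common adult receptor, had 1, 0, 1 and 1 peaks, all in a region at chr5:161547682-161548209 whose summit was 507 bp inside the gene. Its folds were 4.58, 5.36 and 4.56 in replicates 1, 3 and 4.

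GABRG3, a gamma subunit, was the receptor gene with an IgG peak. It had 6, 4, 3 and 4 peaks in MYT1L replicates 1 to 4 and 1 in IgG replicate 1. The IgG peak lay in the region at its start, chr15:26970831-26971749, where all 4 MYT1L libraries also had a peak, with folds of 5.67, 4.73, 7.18 and 7.77. The call for GABRG3 rested on another region, 32996 bp into the gene at chr15:27003866-27004525, with folds of 5.16, 5.59 and 5.02 in replicates 1, 2 and 4. Its window held 11 regions in all. GABRG1 had no peak.

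None of the delta, epsilon, pi and theta subunits (GABRD, GABRE, GABRP, GABRQ) and none of the rho subunits (GABRR1 to GABRR3), known for receptors of the retina, had a reproducible region. GABRE had 1 peak in replicate 1, and GABRQ and GABRR3 had 1 each in replicate 4. GABRR2 had 1 each in replicates 3 and 4.

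Both GABA-B genes were occupied in all 4 MYT1L libraries. GABBR1 encodes the subunit that binds GABA and GABBR2 the one that couples to the G protein. GABBR1 had 1, 1, 1 and 3 peaks, with the shared region across its start at chr6:29632391-29633627 and folds of 6.27, 4.80, 3.88 and 6.30. GABBR2 had 3, 2, 4 and 8 peaks in 12 regions, more regions than any other receptor gene. The region at its start, chr9:98708257-98709752, had folds of 6.21, 4.58, 5.35 and 5.20, which overlap those of GABBR1. A second reproducible region lay 244791 bp into the gene at chr9:98463827-98464598, in replicates 1, 3 and 4.

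Every glutamate receptor gene had a peak in at least 1 MYT1L library and none had one in IgG. These genes are long, with a median of 272.8 kb, but the shortest, GRIN3B, is 9.314 kb and also had a peak. In MYT1L replicate 4 alone 77.6% of all protein-coding genes had a peak, and in IgG replicates 1 and 2 only 1.61% and 2.90% did. Of the 4 AMPA receptor genes, which carry fast excitation, GRIA2 and GRIA4 were called. GRIA4, a subunit found in many interneurons, had 1 peak in each MYT1L library, all in chr11:105610079-105610715 over the promoter printed above. Its folds were 6.41, 5.45, 7.31 and 10.6, a mean of 7.45 ± 2.25 (SD, n = 4), with replicate 4 the highest. GRIA2, whose edited product limits the calcium permeability of the channel, had 1, 1, 2 and 2 peaks in a pair of regions. The one at its promoter, chr4:157220349-157220841, had folds of 6.05, 5.76 and 8.46 in replicates 1, 3 and 4, and the one 1384 bp downstream, chr4:157221816-157222706, had folds of 4.73, 5.86 and 6.84 in replicates 2, 3 and 4. GRIA3 had 1 peak each in replicates 2 and 4, and GRIA1 had 1 in replicate 4.

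Among the 5 kainate receptor genes GRIK2, GRIK3 and GRIK4 were called. GRIK2, which can form channels on its own, had 3, 1, 1 and 2 peaks, and its start region at chr6:101393129-101394233 had folds of 6.04, 4.89, 6.34 and 8.35 in replicates 1 to 4. GRIK3 had 8, 1, 3 and 2 peaks, with replicate 1 far above the others. Only its start region, chr1:37033368-37034979, was reproducible, with folds of 3.64, 4.56 and 5.51 in replicates 1, 2 and 4. GRIK4, which needs another kainate subunit to form a channel, had 5, 0, 4 and 5 peaks. Its reproducible regions lay at the start, chr11:120511047-120512101, and 2791 bp from the far end of the gene, chr11:120985897-120986490. Folds at the start were 4.30, 4.90 and 3.99 in replicates 1, 3 and 4, each below the 5.49, 6.67 and 6.93 near the far end. GRIK1 and GRIK5 reached at most 2 and 1 libraries in any region.

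Of the 7 NMDA receptor genes GRIN2A, GRIN2D and GRIN3A were called, none with a peak in replicate 2. The windows of the whole class held 10, 0, 6 and 14 peaks in MYT1L replicates 1 to 4. GRIN3A, which lowers calcium entry through the receptor, had 2, 0, 1 and 3 peaks, and its region at chr9:101737506-101738751 had folds of 6.02, 6.34 and 7.32 in replicates 1, 3 and 4. GRIN2A, a glutamate-binding subunit that rises as cortex matures, had 2, 0, 1 and 1 peaks and folds of 3.88, 3.67 and 6.43 in replicates 1, 3 and 4 at chr16:10181487-10183371. GRIN2D, a subunit of early development and of interneurons, had 2, 0, 2 and 4 peaks, and its reproducible region lay 11333 bp into the gene at chr19:48404829-48405177 with folds of 4.44, 4.31 and 4.73 in the same replicates. The obligatory subunit GRIN1 and the early subunit GRIN2B had regions of at most 2 libraries, and GRIN2C and GRIN3B of 1.

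GRID1, a delta receptor that links synapses through extracellular partners, had 4, 2, 4 and 1 peaks. Its region at an end of the gene, chr10:86365770-86366870, was in all 4 libraries with folds of 4.43, 4.56, 5.11 and 4.63, the least spread of any region seen in all 4. Of the 7 metabotropic genes, 4 were called. The group II genes GRM2 and GRM3, which dampen transmitter release, were both among them. GRM3 had 1, 1, 2 and 2 peaks, with folds of 5.04, 7.04, 6.34 and 5.37 at chr7:86644453-86645344, and GRM2 had 0, 1, 1 and 1, with folds of 4.54, 4.11 and 4.44 in replicates 2 to 4 at chr3:51706849-51707477. In group III, presynaptic receptors apart from the retinal GRM6, GRM4 had 2, 1, 1 and 5 peaks and GRM8 had 3, 3, 1 and 2. The GRM4 region, chr6:34145133-34145808, had its summit 604 bp from a start listed inside the gene and 10139 bp from the nearest gene end, with folds of 3.16, 4.67, 4.29 and 4.52. That of GRM8, chr7:126685290-126685955, was 557769 bp from the nearest start, in replicates 1, 3 and 4. The group I gene GRM5 and the group III gene GRM7 reached 2 libraries and GRM6 reached 1.

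**Figure D3:**
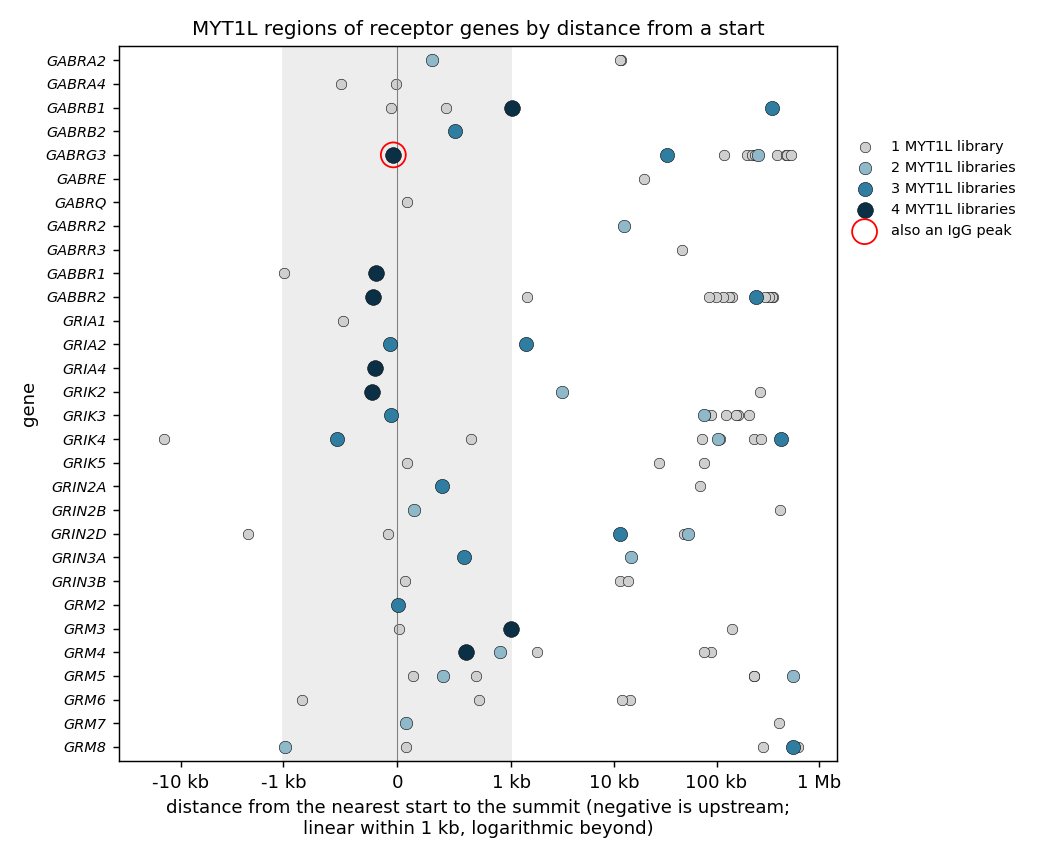
Each point is a MYT1L region of a receptor gene with known strand, placed by the distance of its summit from the nearest start (linear within 1 kb, logarithmic beyond; grey band, within 1 kb) and shaded by the number of MYT1L libraries with a peak. Regions of 4 libraries sit within about 1 kb of a start, regions far inside genes are mostly of 1 library, and the ringed GABRG3 start region is the one with an IgG peak.

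GABA and glutamate receptor genes were then compared within each MYT1L library. GABA windows held 18, 9, 14 and 28 peaks in replicates 1 to 4 over 2.83 Mb, and glutamate windows 43, 16, 30 and 48 over 7.82 Mb. This gave 6.36, 3.18, 4.95 and 9.89 peaks per Mb for GABA and 5.50, 2.05, 3.84 and 6.14 for glutamate. GABA was denser in 4 of 4 libraries, by 0.862, 1.13, 1.11 and 3.76 peaks per Mb, a mean of 1.72 ± 1.37 (SD, n = 4). An exact sign-flip permutation test gave p = 0.13, the smallest that 4 libraries allow, and 0.133 after Benjamini-Hochberg adjustment over the 4 tests made here. The excess was 1.04 peaks per Mb without MYT1L replicate 4 and also 1.04 without GABBR2, and it was 0.595 with −log10 q of at least 5 and 0.828 with lists of equal length. With equal lists replicate 4 had the lowest excess of the 4 libraries, 0.428. Without GABRG3 replicate 1 had a difference of -0.163. Without both GABRG3 and GABBR2 the excess was 0.433, with -0.549, -0.396, 0.0135 and 2.66 in replicates 1 to 4 (exact sign-flip p = 0.875), so that GABA was then lower in 2 of 4 libraries.

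The direction also depended on the unit. Per gene, GABA receptor genes had 0.986 ± 0.474 peaks and glutamate receptor genes 1.43 ± 0.597 (SD, n = 4), a difference of -0.44 with GABA lower in 4 of 4 libraries. GABA receptor genes are shorter, with a median of 67.76 kb against 272.8 kb. Over genes, the Spearman correlation of gene length with the number of regions was 0.43 for all 42, 0.629 for the 18 GABA and 0.153 for the 24 glutamate receptor genes, given as a description since windows and libraries are shared. In IgG, the GABA minus glutamate difference was 0.353 and 0 peaks per Mb. It was larger with MYT1L than with IgG by 1.54, at an exact permutation p of 0.133 (adjusted p = 0.133), by 0.859 without MYT1L replicate 4, by 0.595 with −log10 q of at least 5 and by 0.651 with lists of equal length.

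**Figure D4:**
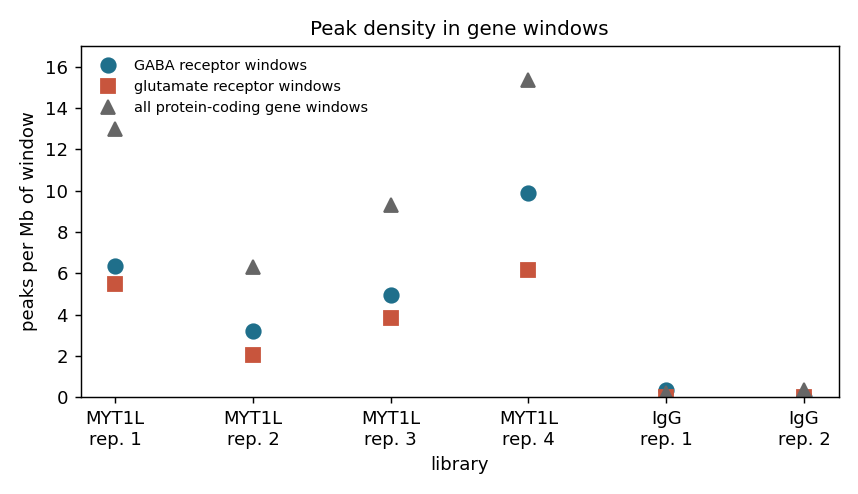
Points give peaks per Mb of gene window in each library for GABA receptor genes (circles), glutamate receptor genes (squares) and all protein-coding genes (triangles). In all 4 MYT1L libraries the order is all genes, GABA, glutamate, with the widest gap between GABA and glutamate in replicate 4 (9.89 against 6.14).

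A lower share of GABA than of glutamate receptor peaks lay at gene starts in 4 of 4 libraries. The share of peaks with a summit within 1 kb of a start (of either end where no strand was given) was 38.9%, 44.4%, 28.6% and 35.7% in MYT1L replicates 1 to 4 for GABA, and 44.2%, 50%, 36.7% and 62.5% for glutamate. The difference was -5.30, -5.56, -8.10 and -26.8 percentage points, a mean of -11.4 ± 10.3 (SD, n = 4), at an exact sign-flip p of 0.13 (adjusted p = 0.133). It was -6.32 without MYT1L replicate 4, -5.48 with lists of equal length and -2.72 with starts taken as 500 bp. With lists of equal length replicate 4 was at 2.68. With only the genes of known strand the mean was -8.53. Glutamate receptor genes also have more listed starts, with 33 promoters in 19 genes against 18 in 15 GABA receptor genes, and this was not adjusted for. With −log10 q of at least 5 the mean turned to 4.15 through replicate 2 alone, at 50 points from 1 of 2 GABA and 0 of 2 glutamate peaks, while replicates 1, 3 and 4 were at -19.4, -4.55 and -9.41. Without both GABRG3 and GABBR2 the mean was 1.86, with 11.4, 16.7, -8.10 and -12.5 points in replicates 1 to 4 (exact sign-flip p = 0.875), and without GABRG3 alone it was -4.65, with 5.81 and 10 points in replicates 1 and 2. Away from starts, GABA windows held 3.89 ± 1.89 peaks per Mb and glutamate windows 2.21 ± 0.857 (SD, n = 4). The median fold of a peak was 5.19, 5.15, 4.91 and 5.07 for GABA and 4.43, 4.85, 4.57 and 5.27 for glutamate, beside 4.92, 5.56, 5.17 and 5.55 over all peaks of those libraries. GABA was higher in 3 of 4, by 0.30 ± 0.394 (SD, n = 4), which is less than the spread between libraries.

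Because long windows catch more peaks, the calls were also set beside genes of similar length. Under 20 kb, 1 of 6 receptor genes was called, beside 34.7% of all genes of that length. From 20 to 100 kb, 3 of 13 were called, beside 55.1%, with 2 of 10 GABA and 1 of 3 glutamate receptor genes. From 100 to 300 kb the count was 6 of 8, beside 66.5%, with 1 of 3 GABA and 5 of 5 glutamate receptor genes. At 300 kb or more it was 9 of 15, beside 71.2%, with 3 of 3 GABA and 6 of 12 glutamate receptor genes. The receptor genes together were below all genes of similar length in every class except 100 to 300 kb. The lower overall share of GABA receptor genes was not repeated among the longest genes. The share called differed by -20.8 percentage points, GABA minus glutamate. It was -36.1 without MYT1L replicate 3 when 2 of the 3 libraries left were required, and -2.78 when all 3 were. It was -12.5 with −log10 q of at least 5, -4.17 with all 4 libraries required and 1.39 with lists of equal length. These are counts over few genes with no test.

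**Figure D5:**
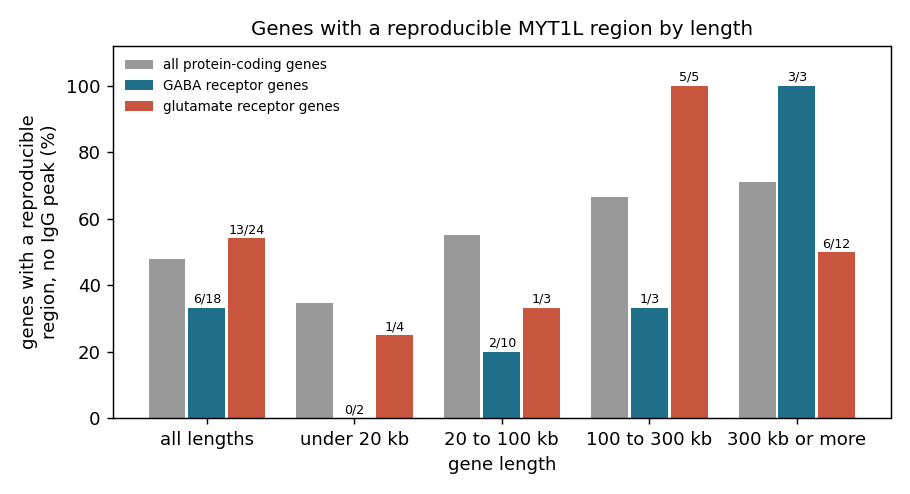
Bars give the percent of genes with a reproducible MYT1L region and no IgG peak in it, by gene length, for all protein-coding genes (grey), GABA (blue) and glutamate (red) receptor genes; numbers above bars are genes called over genes in the class. GABA bars lie below the grey ones up to 300 kb and above them at 300 kb or more, where 3 of 3 GABA receptor genes were called. Among the length classes, glutamate bars also lie below the grey ones except at 100 to 300 kb, where 5 of 5 were called.

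A list of 30 genes for receptor auxiliary subunits, anchors and scaffolds was counted in the same way. Of these, 15 had a reproducible region (50%), beside 48.0% of all protein-coding genes. On the inhibitory side they included GPHN, the gephyrin scaffold of GABA-A and glycine receptors, with 7 reproducible regions over 1227 kb, GABARAP, and KCTD8, KCTD12 and KCTD16, which are auxiliary subunits of GABA-B receptors. All 3 KCTD genes on the list and both GABA-B genes were thus called. On the excitatory side were CNIH2, CNIH3, CACNG8, SHISA6 and SHISA9, which modify AMPA receptors, and the scaffold genes DLG4, GRIP1, PICK1, HOMER1 and HOMER2. The other AMPA receptor auxiliary genes CACNG2, CACNG3, CACNG4, CACNG5, CACNG7 and GSG1L, and the kainate receptor partners NETO1 and NETO2, were not called.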

How the data were processed

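MYT1L and IgG CUT&RUN libraries were compared as the authors' deposited peak lists, 1 per library. Per the submitters' processing notes the genome was hg38 and the caller MACS2, whose version is not given in the sources used here. The deposited lists give each peak a fold enrichment ratio, a −log10 p-value and q-value, and a score. The lowest −log10 q was 2.00 in every list. The score the authors deposited repeats the −log10 q on another scale and was not used further. Names inside the MYT1L lists carry a sample number that differs from the titles, and the titles were followed.

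Genes came from the RefSeq table for GRCh38.p14, strands and starts from its promoter table. Peaks and genes were limited to chromosomes 1 to 22, X and Y. Windows, regions and calls follow the definitions in the text. No genome sequence or exon annotation was used, so exons, introns and UTRs were not assigned. A gene's start was its 5′ end or any start in the promoter table, and for 8 genes either end. Peaks shared by GABRA4 and GABRB1 were counted once in sums over groups. Tests were exact permutations over the 6 libraries or sign flips over the 4 MYT1L libraries, two-sided. With so few libraries no p could fall below 0.133 by permutation or 0.125 by sign flips. Every called gene is named, with the region of most libraries; the rule for promoters allowed more than the 5 printed. The members, lists and rules were chosen with earlier results of these data known. Scripts were tested on simulated peaks and against bedtools 2.31.1, and used Python 3.11.15, pandas 2.3.3, numpy 2.4.6, scipy 1.17.1 and matplotlib 3.10.9. Alternatives covered peak strength, list length, library number, windows, starts and single libraries.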

Additional observations from a re-analysis of the deposited data

Results flagged for a closer look

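In MYT1L replicate 4 the density of peaks in GABA receptor windows exceeded that in glutamate receptor windows by 3.76 peaks per Mb, far from the other 3 MYT1L libraries, which lay between 0.862 and 1.13. The gap between replicate 4 and the nearest library was 0.906 of the whole range. The same library stood apart in the share of peaks at gene starts, where GABA minus glutamate was -26.8 percentage points against -8.10 to -5.30 in the others, a gap of 0.870 of the range. Of the 30 sets of 4 values examined in this way, 2 stood apart, and chance alone would do so in about 1 in 20 independent sets. The 30 sets came from the same libraries and are not independent, so the count of 2 cannot be weighed against that rate. Replicate 4 has the longest peak list. With each MYT1L list held to its strongest peaks at the length of the shortest, replicate 4 had 0.428 peaks per Mb, the lowest of the 4 libraries (0.555 to 1.19 in the others), and 2.68 points, against -10.5 to -5.56 in the others.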

How the results depend on the processing

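Keeping peaks with −log10 q of at least 5 turned the start share difference to 4.15 points, by replicate 2 alone (50 points, from 4 peaks), left 10 receptor genes called and put GABA minus glutamate calls at -12.5 points. Lists of equal length left 9 genes and a difference in calls of 1.39 points, the opposite sign. Requiring 2 libraries gave -34.7 points, and requiring all 4 gave 8 genes and -4.17 points. Leaving out 1 MYT1L library also changed the call rule. With 2 of 3 libraries required 18 to 26 genes were called and the difference in calls ran from -36.1 to -23.6 points (-20.8 without either IgG library). With 3 of 3 required it was 8 to 15 genes and -13.9 to -2.78 points. Without GABRG3 and GABBR2 the start share difference was 1.86 points. Counting peaks per gene turned the density difference to -0.44. The causes were not tested beyond the fewer peaks or libraries each setting uses. With the replicate block, which pairs MYT1L and IgG libraries of the same number in 2 pairs, the MYT1L minus IgG density was 3.99 peaks per Mb and the GABA minus glutamate difference 0.821, each at an exact p of 0.5, the smallest 2 pairs allow; the labels give no shared culture or day behind the numbers. Dropping GABRG3, GABBR2 or both, 3 of 3 libraries, peaks away from starts, genes with a strand only and the share of a library's peaks were added after the data were seen. No test could pass 0.05, so kept directions say little about stability. Peak lists hold no read depth, and weak binding below the authors' threshold cannot be seen.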
